A study of Mus musculus with 6 samples.

Results

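The nuclear-encoded subunits of the mitochondrial respiratory chain and of ATP synthase were examined in RNA-Seq libraries of mouse podocytes (MPCs). Members were all table entries (loci) whose gene symbol began with Ndufa, Ndufb, Ndufc, Ndufs, Ndufv, Sdh, Uqcr, Cox4, Cox5, Cox6, Cox7, Cox8 or Atp5, without symbols carrying -ps and without the Ndufaf assembly factors, and whose FPKM averaged at least 1 over the 6 libraries. FPKM count the fragments assigned to a locus, divided by transcript length and by the number of fragments mapped in the library. This rule kept 80 members among 24469 loci, of which 10562 reached the same mean and were tested. By complex, 36 belonged to complex I, 4 to complex II, 8 to complex III, 12 to complex IV and 15 to complex V, and 5 were complex II assembly factors (*Sdhaf1*, *Sdhaf2*, *Sdhaf4*) or proteins that only share the Atp5 prefix (*Atp5s*, *Atp5sl*). *Ndufa4* was counted with complex IV, where its protein resides, and *Cox7a2l*, a factor of respiratory supercomplexes, was placed there too. *Cyc1*, the nuclear gene for cytochrome c1 of complex III, matched none of these symbols. It was followed apart, with cytochrome c and carriers.

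The cells were a conditionally immortalized line, grown with 50 U/mL interferon gamma at 33 °C and differentiated for 10 days at 37 °C without it. All 3 groups of 2 libraries were starved of serum for 12 h and then kept in high glucose (HG, 25 mM) for 12 h. The groups were HG alone, HG after 1 h with 100 ng/mL of wild-type recombinant FGF1 (rFGF1WT), and HG after the same exposure to rFGF1ΔHBS, a mutant with weakened binding to heparan sulfate. No pretreatment is described for the HG cells, and cells in normal glucose were not part of the comparisons. The labels do not say whether replicates were separate cultures, so p-values measure the spread between libraries, which may be technical.

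Complexes I to IV carry electrons from NADH and succinate to oxygen, and complexes I, III and IV pump protons out of the mitochondrial matrix. Complex V, the ATP synthase, lets the protons return and makes ATP. Most subunits are encoded in the nucleus and imported, while a small core set is encoded in mitochondrial DNA, so that assembly needs both genomes. Podocytes, the epithelial cells that cover the glomerular capillaries, draw on both glycolysis and mitochondrial respiration for energy.

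Library depth was estimated, from steps in low FPKM taken to be 1 fragment, as 22300000 to 23200000 fragments, or 0.971 to 1.01 of the first HG library. Such steps held 45.3% to 50.7% of the low values searched, where a window of that width covered 3.33% of the range. On this estimate, members were covered by about 21.4 fragments (*Sdhaf4*) to 13255 fragments (*Atp5b*) per library. These numbers take the longest annotated transcript of each gene, and shorter transcripts would give fewer fragments. Of 14 podocyte markers, 7 averaged at least 1 FPKM, among them *Cd2ap*, *Actn4* and *Podxl*, while the defining markers *Wt1* and *Lmx1b* were at or near 0. The podocyte list summed to 222 to 229 FPKM under HG and to 296 to 315 FPKM with either protein, but its members went different ways. *Nes* rose from 43.2 and 41.8 FPKM to 78.7 to 84.3 FPKM with either protein (adjusted p = 0.00576 and 0.0051) and *Kirrel* rose with rFGF1WT (adjusted p = 0.0483), while *Synpo* was at 9.58 and 10.2 FPKM under HG and at 4.01 to 6.83 FPKM with either protein (adjusted p = 0.0787 and 0.131). A list of tubular epithelial markers, led by *Cdh16*, *Aqp1* and *Lrp2* (3 of 8 at 1 FPKM or more), summed to 158 FPKM in each HG library and to 109 to 122 FPKM with either protein. Endothelial markers (0 of 6) summed to at most 0.179 FPKM, mesangial markers (2 of 5) to 40.3 to 45.6 FPKM and macrophage markers (3 of 8) to 69.7 to 82.5 FPKM, with *Adgre1*, *Ptprc* and *Itgam* near 0. Most of the macrophage sum was *Cd68*, on a locus merged with the translation factor gene *Eif4a1*. That locus rose from 53.1 and 50.1 FPKM under HG to 63.1 to 67.3 FPKM with either protein (adjusted p = 0.0496 and 0.0363). In contrast, *Csf1r* fell from 9.56 and 10.7 FPKM to 3.21 to 3.93 FPKM (adjusted p = 0.0114 and 0.014). In bulk RNA, fewer cells of a type and less RNA per cell cannot be told apart, and the part of the marker shifts in the results that follow was not tested.

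Subunits of the same complex differed widely in mRNA level. The median of the mean FPKM was 13.3 in complex I, 19.6 in complex II, 19.9 in complex III, 39.3 in complex IV and 32.1 in complex V. *Cox6a1*, a small subunit of cytochrome c oxidase on chromosome 5, was the highest member at 328 FPKM, followed by the catalytic ATP synthase subunit *Atp5b* on chromosome 10 at 305 FPKM. At the other end of these complexes stood *Cox5a* at 13.1 FPKM and *Atp5g1*, which encodes the c subunit of the proton-driven ring, at 4.02 FPKM. In complex I the lowest was *Ndufb2*, a membrane arm subunit, at 1.92 FPKM. Complex II was the narrowest, with *Sdhc* (19.0), *Sdhb* (19.5) and *Sdhd* (19.7 FPKM) together below *Sdha*, the flavoprotein, at 57.3 FPKM. The mean of *Sdhd* includes 1 library at 51.5 FPKM, and this gene stood at 11.7 to 15.6 FPKM in the others. Among the 8 complex III members, *Uqcrb* led at 64.3 FPKM and *Uqcr10* was lowest at 7.97 FPKM. *Cyc1*, outside the member set, was higher than *Uqcrb* at 72.0 FPKM. The mean of *Uqcr10* includes 1 library at 37.8 FPKM, while 4 libraries were at 1.04 to 1.48 FPKM. Across the 79 members with an annotated transcript, which are not independent replicates, the level was only weakly related to the length of the longest annotated transcript (Pearson's r -0.16, Spearman's rho -0.13 on log2 values). The length of the transcript expressed may differ.

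**Figure D1:**
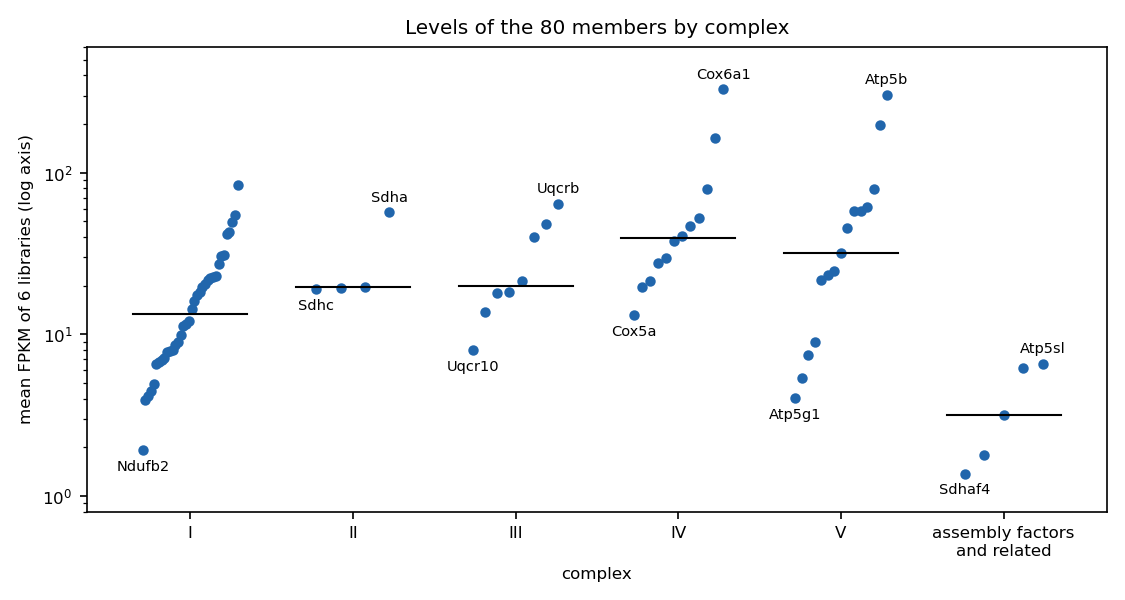
Mean FPKM over the 6 libraries (log axis) of each of the 80 members, by complex, with 1 point per member and a black line at the median. Members at the ends of the ranges are named, from Sdhaf4 at 1.38 to Cox6a1 at 328 FPKM.

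The cells used the broadly expressed isoforms of subunits that exist as paralogs. *Cox4i1* stood at 163 FPKM and *Cox4i2*, the isoform tied to lung and low oxygen, at 0.13 FPKM. Likewise *Cox6a1* far exceeded the muscle form *Cox6a2* (0.04 FPKM), *Cox6b1* (40.8 FPKM) exceeded the testis form *Cox6b2* (0.02 FPKM), and *Cox7a2* (29.8 FPKM) exceeded the muscle form *Cox7a1* (0.18 FPKM). *Ndufa4* was at 52.6 FPKM and *Ndufa4l2*, a hypoxia-inducible relative, at 0.13 FPKM. *Cox7b* (27.6 FPKM) and *Cox8a* (79.9 FPKM) had no second member in the set. These 5 minor isoforms and *Sdhaf3* (0.41 FPKM, the nearest below the limit) were the 6 rows left out by level, and the members just above it were *Sdhaf4* (1.38), *Atp5s* (1.80) and *Ndufb2* (1.92 FPKM). In none of the 6 libraries did a minor isoform exceed 0.278 FPKM. Of the 3 genes for the c subunit, whose mature proteins are identical, *Atp5g2* (23.4 FPKM) and *Atp5g3* (21.7 FPKM) supplied most of the mRNA and *Atp5g1* the rest.

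Nuclear respiratory factor 1 (NRF1) and the ETS factor GABP are known regulators of this gene family, so the promoters were searched for their motifs. RefSeq windows (GRCm38.p6, 250 bases before to 50 after the start site) were found for 69 members. Those without included *Uqcrc2*, *Cox4i1*, *Uqcrq*, *Uqcrb*, *Cox6c*, *Ndufb9*, *Atp5a1* and *Sdhc*. Both strands were searched, and motifs may overlap. The palindromic NRF1 motif of 10 bases, spelled by the capitals in the sequences further below, was searched whole and with any base allowed at the fifth position. In the relaxed form, which includes the whole one, it was present in 18 of 69 members (26.1%), against 4.60% of all 32851 promoters of this length and 12.7% of the 8349 tested genes with a promoter. The ETS motif CCGGAAG was in 18 members (26.1%, against 8.86% of all promoters and 22.2% of tested genes), and the YY1 motif AAGATGGC in 11 (15.9%, against 2.75% and 5.88%). The GC box GGGCGG was in 30 members (43.5%), against 35.7% of all promoters and 72.5% of tested genes. The motif TNAAGGTCA of the estrogen-related receptors was in 3 members (*Atp5g3*, *Ndufb4* and *Sdhd*; 4.35%, against 1.28% and 0.814%). These matches describe letters and not binding.

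The whole NRF1 palindrome occurred in 5 promoters (*Atp5g2*, *Atp5k*, *Cox6a1*, *Ndufa11* and *Uqcrc1*), or 7.25% of members against 0.971% of all promoters and 2.58% of tested genes. The 4 promoters in which it lay wholly before the RefSeq start are shown because they hold the most complete form of the motif, in capitals with 10 flanking bases on each side, 5′ to 3′ on the strand of the gene (GRCm38.p6). The windows are chr15:102671070-102671099 (-), which GENCODE places in an exon of a longer *Atp5g2* transcript, chr5:108434430-108434459 (-) in an exon of an *Atp5k* transcript, chr5:115349101-115349130 (-) in an exon of the opposite-strand gene *Gm42903*, and chr17:56717692-56717721 (+) inside the opposite-strand gene *Vmac*.
Atp5g2: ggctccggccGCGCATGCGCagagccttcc
Atp5k: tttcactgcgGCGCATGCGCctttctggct
Cox6a1: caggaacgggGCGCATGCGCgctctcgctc
Ndufa11: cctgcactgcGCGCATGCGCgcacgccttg
For members with the relaxed NRF1 motif, the log2 fold change against HG had a median of -0.10 for rFGF1WT and -0.13 for rFGF1ΔHBS, close to the -0.09 and -0.11 of the members without it. With the ETS motif these medians were 0.03 and -0.10, and without it -0.11 and -0.12.

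The comparisons asked whether either form of FGF1 changed these mRNAs in HG, and whether the forms differed. Log2(FPKM + 1) was compared with limma in a fit of all 6 libraries, and adjusted p-values are Benjamini-Hochberg values over all 10562 loci. No member passed an adjusted p of 0.05 with rFGF1WT (0 of 80, where 6.19% of all tested loci passed, 3.26% higher and 2.94% lower). At an unadjusted p under 0.05 there were 8 members, all lower (10% of members, against 14% of all loci lower and 24.8% in either direction). With rFGF1ΔHBS 1 of 80 passed, in the lower direction (6.26% of all loci passed, 3.37% higher and 2.89% lower), and 7 members had an unadjusted p under 0.05, all lower (8.75%, against 14% of loci lower and 24.9% in either direction). Between the proteins no member passed (0 of 80, against 0.549% of all loci, 0.294% higher and 0.256% lower), with 4 at an unadjusted p under 0.05 (5%, against 4.87%), of which *Ndufa11* and *Ndufs8* were lower (2.5%, against 2.41%) and *Ndufb2* and *Ndufb4* higher with rFGF1ΔHBS. No member passed with a change of at least 2-fold in any comparison, where 1.01%, 0.899% and 0.35% of all loci did. The comparisons of rFGF1WT and rFGF1ΔHBS with HG share the HG libraries and are not independent.

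The median log2 fold change was -0.09 with rFGF1WT (all loci -0.04) and -0.12 with rFGF1ΔHBS (all loci -0.04), and 56 and 69 of 80 members were below 0 (70% and 86.2%, against 56.2% and 55.6% of loci). With median-ratio scaling the medians were -0.054 (all loci -0.0043) and -0.085 (all loci -0.0054). Without the first HG library they were -0.043 (all loci -0.046) and -0.069 (all loci -0.040), so that the member median with rFGF1WT was then no lower than that of all loci. Libraries with rFGF1WT lay wholly below HG for 28 members (35%, against 34.1% of loci) and wholly above for 3 members (3.75%, against 24.1%), namely *Uqcr10*, *Cox8a* and *Atp5g1*. With rFGF1ΔHBS, 34 members lay wholly below HG (42.5%, against 32.9% of loci) and 2 wholly above (2.5%, against 24.4%), *Ndufb3* and *Atp5l*. Scaling the libraries by median ratios, chosen after the data were seen, left 22 and 28 members wholly below (27.5% and 35%, against 28.8% and 28.4%) and 5 and 4 wholly above (6.25% and 5%, against 28.5% and 28.3%). The share wholly below HG thus stood near that of all loci with rFGF1WT, and few members lay wholly above HG with either protein. The 95% interval of the fold change lay within 2-fold in either direction for 69 members with each protein (86.2%, against 79.5% and 79.6% of loci), and the median SD between replicates was 0.13 for members and 0.11 for all loci on the log2 scale.

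**Figure D2:**
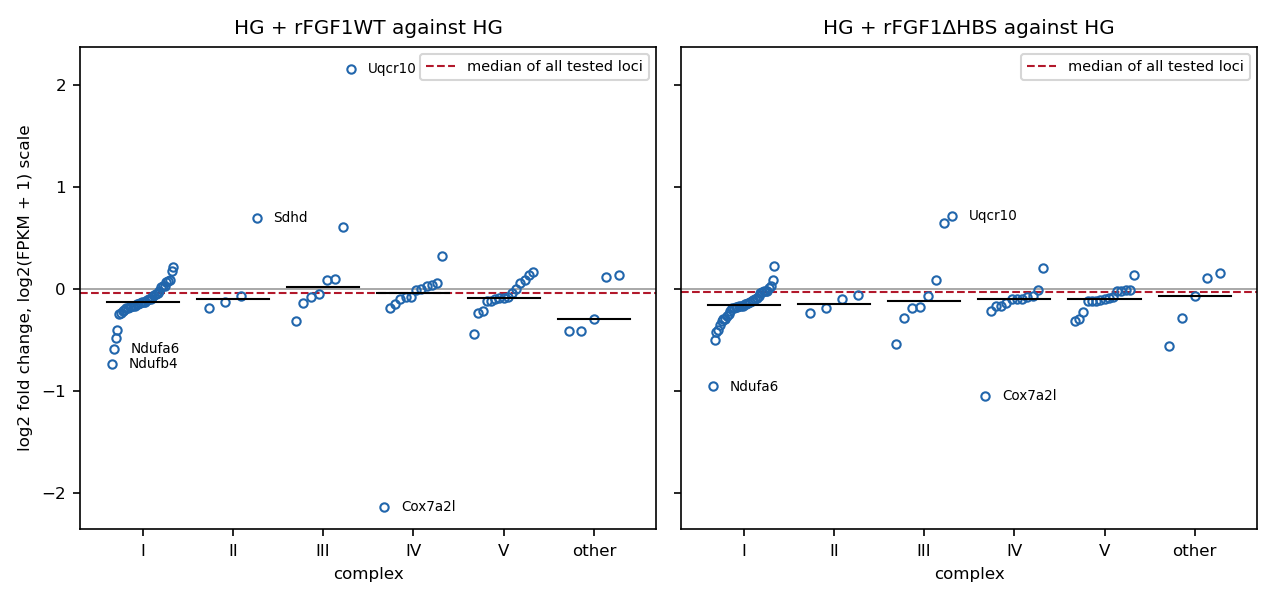
Log2 fold change against HG, on the log2(FPKM + 1) scale, of each member by complex for rFGF1WT (left) and rFGF1ΔHBS (right). Black lines are medians of each complex, and the dashed line is the median of all tested loci. The medians of complexes I to V lie between -0.16 and 0.02, and that of the assembly factors and related proteins is -0.29 with rFGF1WT.

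Complex I oxidizes NADH and is built from a matrix arm, which carries the redox centres, and a membrane arm, which pumps protons. Its subunits summed to 749 and 772 FPKM under HG, 689 and 653 FPKM with rFGF1WT, and 637 and 650 FPKM with rFGF1ΔHBS. The sums with either protein did not overlap HG. Singly, 14 (rFGF1WT) and 19 (rFGF1ΔHBS) of 36 subunits lay wholly below HG, where 34.1% and 32.9% of all loci did. The sums are carried by the most abundant subunits and were not tested. Median log2 fold changes were -0.13 and -0.16, with 28 and 32 of 36 below 0 (77.8% and 88.9%, against 56.2% and 55.6% of loci). Matrix arm subunits had medians of -0.14 and -0.17 (n = 16) and membrane arm subunits of -0.13 in both comparisons (n = 19).

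The 7 core subunits had medians of -0.10 with rFGF1WT and -0.17 with rFGF1ΔHBS, and all 7 were below 0 with rFGF1ΔHBS. Among them *Ndufs8*, which binds iron-sulfur clusters, was at 53.2 and 49.5 FPKM under HG, 53.4 and 51.5 FPKM with rFGF1WT, and 43.2 and 47.9 FPKM with rFGF1ΔHBS. The rFGF1ΔHBS libraries of *Ndufs8* lay wholly below the others, with adjusted p-values of 0.839 (rFGF1WT) and 0.255 (rFGF1ΔHBS) against HG and 0.905 between the proteins.

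*Ndufb4*, a membrane arm subunit on chromosome 16 (37647170 to 37654453, minus strand), had the largest difference in complex I with rFGF1WT. It stood at 21.7 and 25.5 FPKM under HG, 13.0 and 14.5 FPKM with rFGF1WT, and 18.8 and 24.1 FPKM with rFGF1ΔHBS. Only rFGF1WT stood apart from HG in this gene. The log2 fold change of -0.73 had a 95% interval of -1.14 to -0.33 before adjustment and an adjusted p of 0.076, and with rFGF1ΔHBS it was -0.14 (adjusted p = 0.622). The difference between the proteins was 0.60 (95% interval 0.19 to 1.01, adjusted p = 0.703).

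*Ndufa6*, an accessory subunit of the matrix arm on chromosome 15, was at 44.1 and 77.2 FPKM under HG, 40.1 and 36.9 FPKM with rFGF1WT, and 33.6 and 26.0 FPKM with rFGF1ΔHBS. The HG libraries themselves differed by more than those of the other groups. On the log2 scale it differed from HG by -0.59 with rFGF1WT (adjusted p = 0.319) and -0.96 with rFGF1ΔHBS (adjusted p = 0.151). Without the second HG library they were -0.19 and -0.56. *Ndufb9*, a LYR-motif subunit of the membrane arm on the same chromosome, had the same second HG library high, with 58.5 and 78.7 FPKM under HG against 50.0 FPKM or less in the other libraries (49.9 and 47.0 with rFGF1WT, 48.0 and 47.3 with rFGF1ΔHBS). Its adjusted p-values were 0.155 and 0.141. Of the membrane arm genes on merged loci, *Ndufb8* (with *Sec31b* and *Gm20538*) ranged from 7.86 to 10.2 FPKM and *Ndufc1* (with *Gm9442*) from 3.57 to 5.61 FPKM, and neither passed.

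**Figure D3:**
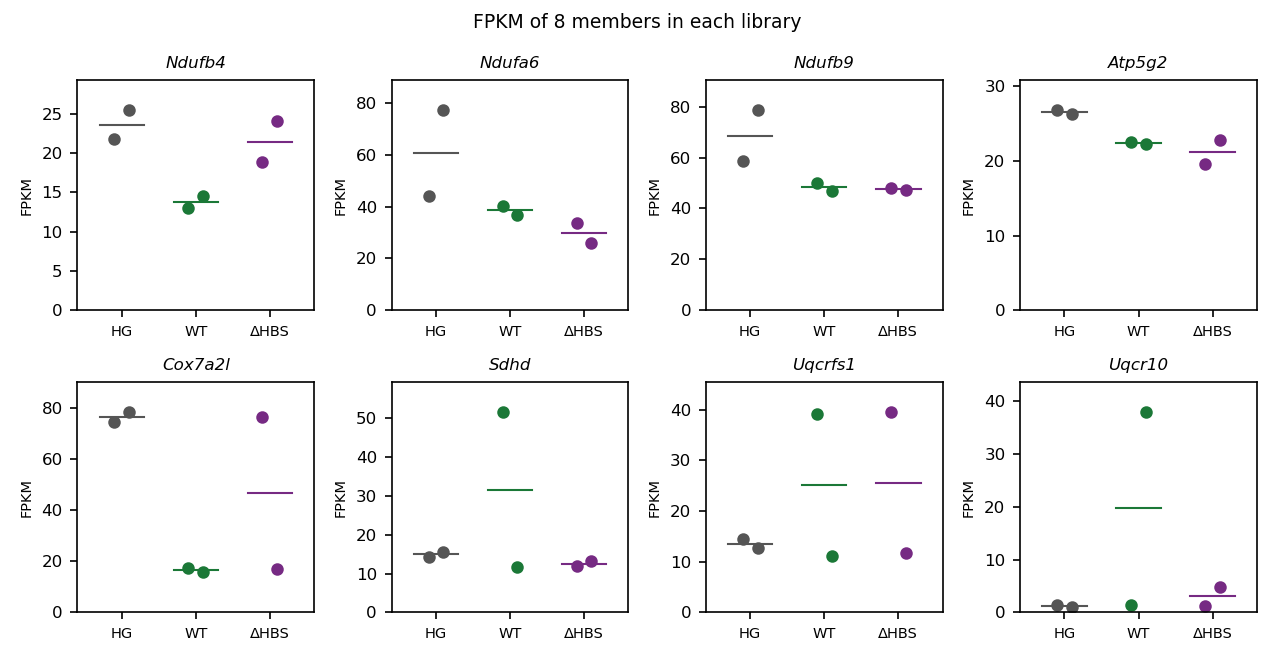
FPKM of 8 members in each library (points), with the group mean as a line; every axis starts at 0, and WT and ΔHBS stand for HG with rFGF1WT and rFGF1ΔHBS. Ndufb4 is low in the rFGF1WT libraries, and Ndufa6 and Ndufb9 are high in the second HG library. The lower row holds members whose 2 libraries split within a group, such as Cox7a2l at 76.4 and 17.0 FPKM within rFGF1ΔHBS.

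Complex II, succinate dehydrogenase, belongs to both the tricarboxylic acid cycle and the respiratory chain. Over its 4 subunits the median was -0.10 with rFGF1WT and -0.15 with rFGF1ΔHBS on the log2 scale, and 3 (rFGF1WT) and 4 (rFGF1ΔHBS) of 4 lay wholly below HG, where 34.1% and 32.9% of all loci did. *Sdhc*, a membrane anchor that holds heme, was at 21.1 and 20.6 FPKM under HG, 18.7 and 17.5 FPKM with rFGF1WT, and 18.3 and 18.0 FPKM with rFGF1ΔHBS. These separated but small differences had adjusted p-values of 0.135 in both comparisons. *Sdhd*, the other anchor (chromosome 9), was at 51.5 FPKM in the first rFGF1WT library and at 11.7 FPKM in the second. It was at 14.3 and 15.6 FPKM under HG and at 12.0 and 13.2 FPKM with rFGF1ΔHBS. The first rFGF1WT library alone set its log2 fold change with rFGF1WT of 0.69 (95% interval -1.19 to 2.57, adjusted p = 0.588). Without it the value was -0.34, and without the second rFGF1WT library it was 1.72 (adjusted p = 0.0272). The summed FPKM of complex II followed it, with 115 and 117 under HG, 147 and 99.9 with rFGF1WT, and 105 and 109 with rFGF1ΔHBS.

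Complex III passes electrons from ubiquinol to cytochrome c. The core proteins *Uqcrc1* and *Uqcrc2* had even libraries. *Uqcrc2* was at 52.1 and 52.3 FPKM under HG, 48.7 and 46.1 FPKM with rFGF1WT, and 46.7 and 44.5 FPKM with rFGF1ΔHBS (adjusted p = 0.211 and 0.123). In contrast, *Uqcrfs1*, the Rieske iron-sulfur protein on chromosome 13, split its libraries within groups. It was at 39.2 and 39.5 FPKM in the first library of rFGF1WT and of rFGF1ΔHBS, and at 11.1 to 14.4 FPKM in the other 4 libraries. *Uqcr10*, a small subunit on chromosome 11, was at 1.04 to 1.48 FPKM in 4 libraries, at 37.8 FPKM in the second rFGF1WT library and at 4.86 FPKM in the second rFGF1ΔHBS library. The log2 fold change of *Uqcr10* with rFGF1WT, 2.16, was the largest in the set and had a 95% interval of -1.68 to 5.99 (adjusted p = 0.424). It was 0.17 without the second rFGF1WT library and 4.14 without the first. With rFGF1ΔHBS its log2 fold change was 0.71 (adjusted p = 0.802). The medians of complex III were 0.02 and -0.12, and no subunit passed the test. The summed FPKM of its members, without *Cyc1*, was 227 and 228 under HG, 256 and 243 with rFGF1WT, and 235 and 206 with rFGF1ΔHBS. The first and second rFGF1WT values include the high *Uqcrfs1* and *Uqcr10* libraries.

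Complex IV, cytochrome c oxidase, reduces oxygen to water. Its summed FPKM was 908 and 903 under HG, 879 and 837 with rFGF1WT, and 860 and 778 with rFGF1ΔHBS, and its median log2 fold changes were -0.04 and -0.10. *Cox6a1* was at 324 and 344 FPKM under HG, 369 and 326 FPKM with rFGF1WT, and 280 and 328 FPKM with rFGF1ΔHBS, so that its libraries overlapped (adjusted p = 0.78 and 0.49). *Cox4i1*, which encodes subunit 4, was at 174 and 171 FPKM, 181 and 146 FPKM, and 156 and 152 FPKM in the same order (adjusted p = 0.679 and 0.43). *Cox8a* was reported on a locus merged with *Otub1*, a deubiquitinase gene, and its values of 67.9 to 106 FPKM cannot be divided between them.

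The exception in complex IV was *Cox7a2l* (chromosome 17, 83501918 to 83517330, minus strand), whose protein links complexes III and IV in supercomplexes. Its FPKM was 74.5 and 78.2 under HG and 17.3 and 15.8 with rFGF1WT, while the rFGF1ΔHBS libraries were split between 76.4 and 17.0. The locus thus showed only a high and a low level, with 3 libraries at each. The log2 fold change was -2.14 with rFGF1WT (standard error 0.72, 95% interval -4.06 to -0.22, adjusted p = 0.171) and -1.05 with rFGF1ΔHBS (adjusted p = 0.434). The spread of the rFGF1ΔHBS libraries enters the test of rFGF1WT, since the groups share their variance: with only the HG and rFGF1WT libraries the adjusted p was 0.0182, and without either rFGF1ΔHBS library it was 0.0177 or 0.0182. Against HG, the value with rFGF1ΔHBS was -2.10 without its first library (adjusted p = 0.0199) and 0.00 without its second.

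In all, 5 members had a highest library at least 3 times the lowest (*Cox7a2l*, *Sdhd*, *Uqcrfs1*, *Uqcr10* and *Sdhaf4*), or 6.25% of members against 11.8% of all loci. Such jumps were therefore no more common here than in the table at large. The first rFGF1WT library was the high one for *Sdhd* and *Uqcrfs1*, the first rFGF1ΔHBS library for *Uqcrfs1*, and the second rFGF1WT library for *Uqcr10*. *Sdhaf4*, a complex II assembly factor, had the lowest level of the set and ran from 0.71 to 2.44 FPKM.

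In complex V the summed FPKM was 990 and 957 under HG, 948 and 874 with rFGF1WT, and 907 and 911 with rFGF1ΔHBS, with median log2 fold changes of -0.09 and -0.10. *Atp5b*, the catalytic beta subunit, was at 304 and 326 FPKM under HG, 293 and 286 FPKM with rFGF1WT, and 304 and 315 FPKM with rFGF1ΔHBS (adjusted p = 0.243 and 0.816). *Atp5a1*, the alpha subunit, was at 212 and 203 FPKM, 196 and 187 FPKM, and 188 and 194 FPKM in the same order (adjusted p = 0.239 and 0.231). *Atp5a1* thus lay wholly below HG with both proteins and *Atp5b* only with rFGF1WT, each by small amounts. *Atp5g2*, the most abundant c subunit gene (chromosome 15), was at 26.8 and 26.3 FPKM under HG, 22.5 and 22.3 FPKM with rFGF1WT, and 19.6 and 22.9 FPKM with rFGF1ΔHBS. Its groups did not overlap with HG, and its log2 fold change with rFGF1ΔHBS, -0.32, was the largest of complex V (95% interval -0.55 to -0.09, adjusted p = 0.116). The 3 c subunit genes summed to 55.4 and 52.6 FPKM under HG, 46.5 and 47.3 FPKM with rFGF1WT, and 46.2 and 46.6 FPKM with rFGF1ΔHBS. *Atp5e*, the epsilon subunit, had the largest value with rFGF1WT (-0.44, adjusted p = 0.224). The peripheral stalk genes *Atp5f1*, *Atp5h*, *Atp5j* and *Atp5o* lay between -0.10 and 0.00 in both comparisons, *Atp5o* on a locus merged with *Donson*.

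**Figure D4:**
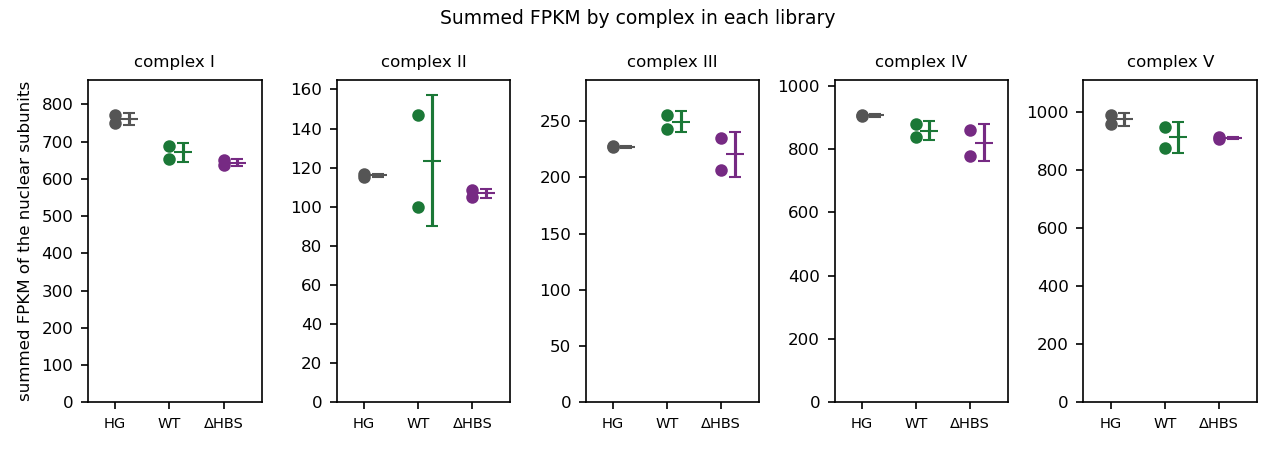
Summed FPKM of the members of each complex (complex III without Cyc1), with 1 point per library and the mean ± SD of 2 libraries beside it. Axes start at 0. Complex I lies lower with both proteins (637 to 689 FPKM) than under HG (749 and 772), while complex II spreads between 99.9 and 147 within rFGF1WT.

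Between the proteins, the median difference of the members (rFGF1ΔHBS minus rFGF1WT) was -0.02, against 0.01 for all loci, and 15 members lay wholly lower and 6 wholly higher with rFGF1ΔHBS (18.8% and 7.5%, against 16.1% and 18.4% of loci). The largest differences were those of *Uqcr10* (-1.44), *Cox7a2l* (1.09) and *Sdhd* (-0.93), each set by single libraries. In complex I the largest difference was that of *Ndufa11*, a membrane arm subunit. It was at 10.3 and 8.74 FPKM with rFGF1WT and at 5.21 and 6.27 FPKM with rFGF1ΔHBS. Its difference was -0.64 (95% interval -1.22 to -0.07, adjusted p = 0.905), but the HG libraries, at 9.85 and 6.52 FPKM, spanned much of that range. In complex V the largest difference was that of *Atp5d* (-0.36, adjusted p = 0.91), the delta subunit, which had 1 high library in HG and in rFGF1WT (77.3 and 82.1 FPKM) and stood at 45.6 to 51.5 FPKM in the other 4. Among the factors outside the complexes, *Atp5s* had the largest value with rFGF1WT (-0.42, adjusted p = 0.244), *Sdhaf4* with rFGF1ΔHBS (-0.56, adjusted p = 0.35) and *Atp5sl* between the proteins (0.22, adjusted p = 0.929). A test of 2 against 2 libraries by permutation cannot give a p below 0.333, so it was not used.

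The mitochondrial DNA supplies other subunits, but of 13 such genes only 7 were in the table, on 3 tested loci and the untested *mt-Nd1*. *mt-Nd2*, a complex I subunit, was at 74.6 and 78.6 FPKM under HG, 77.4 and 70.4 FPKM with rFGF1WT, and 65.9 and 69.0 FPKM with rFGF1ΔHBS. On the log2 scale it differed from HG by -0.05 with rFGF1WT (adjusted p = 0.684) and -0.18 with rFGF1ΔHBS (adjusted p = 0.207). The locus that merges *mt-Nd5* and *mt-Cytb* ranged from 2.04 to 302 FPKM, with 2.36 and 147 FPKM inside HG, and that of *mt-Co1*, *mt-Nd6* and *mt-Nd4* from 1.99 to 26.1 FPKM. The merged loci therefore gave no usable measure of these subunits. The libraries were selected for poly(A) RNA.

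Genes that act with the complexes were followed in lists. Of all loci, 6.19% passed with rFGF1WT, 6.26% with rFGF1ΔHBS and 0.549% between the proteins. Of 40 tested assembly factors and 11 genes for cytochrome c and carriers, such as *Cycs*, *Slc25a4* and *Vdac1*, none passed in any comparison (0 higher and 0 lower). Large but uneven values in the list were those of *Cox14*, an assembly factor of complex IV, at 9.52 and 9.14 FPKM under HG, 8.61 and 0.935 FPKM with rFGF1WT, and 0.65 and 0.517 FPKM with rFGF1ΔHBS (-2.71 with rFGF1ΔHBS, adjusted p = 0.133, or 0.0129 with only those 4 libraries). *Coa6*, another such factor, was at 0.189 and 0.312 FPKM, 7.39 and 6.99 FPKM, and 0.0979 and 6.55 FPKM in the same order (2.71 with rFGF1WT, adjusted p = 0.182, or 0.0187 with only those 4 libraries). Their medians with rFGF1WT and rFGF1ΔHBS were -0.04 and 0.01 for assembly factors and 0.01 and -0.06 for carriers. Of 18 tricarboxylic acid cycle genes, *Idh3a*, a subunit of isocitrate dehydrogenase, rose with rFGF1ΔHBS (0.69, adjusted p = 0.0453), from 8.09 and 7.81 FPKM to 14.3 and 12.6 FPKM, and none passed with rFGF1WT (9.59 and 11.4 FPKM for *Idh3a*). The medians of that list were 0.01 and -0.02.

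Of 20 genes of mitochondrial protein import, 3 rose with rFGF1WT and 2 with rFGF1ΔHBS, and none fell (of all loci 3.26% and 3.37% passed higher and 2.94% and 2.89% lower). *Timm10*, a chaperone of the intermembrane space, was at 4.87 and 4.54 FPKM under HG, 7.37 and 7.53 FPKM with rFGF1WT, and 7.64 and 7.73 FPKM with rFGF1ΔHBS, which are log2 changes of 0.57 (adjusted p = 0.0211) and 0.61 (adjusted p = 0.0201). *Hspd1*, the matrix chaperonin Hsp60, was at 83.8 and 78.7 FPKM under HG, 118 and 109 FPKM with rFGF1WT, and 118 and 124 FPKM with rFGF1ΔHBS, changes of 0.48 (adjusted p = 0.033) and 0.57 (adjusted p = 0.0235). *Tomm40*, the outer membrane pore, rose with rFGF1WT (0.52, adjusted p = 0.0449), from 13.1 and 11.7 FPKM to 18.2 and 18.1 FPKM, and was at 16.6 and 18.3 FPKM with rFGF1ΔHBS (0.46, adjusted p = 0.0546). The list medians were 0.20 and 0.05. When each fit held just its own 4 libraries, the adjusted p of these import genes was 0.0569 or more. Of 9 hypoxia-regulated energy genes, *Bnip3*, a mitophagy receptor, fell with rFGF1WT (by 0.45 on the log2 scale, adjusted p = 0.0496), from 10.5 FPKM in each HG library to 7.68 and 7.15 FPKM. With rFGF1ΔHBS it stood as low, at 7.90 and 7.08 FPKM (-0.44, adjusted p = 0.0514). *Slc2a1*, in the same list, went the other way with rFGF1ΔHBS, at 30.9 FPKM in each library against 12.7 and 18.1 FPKM under HG. Its log2 fold change of 0.98 did not pass (adjusted p = 0.0533), but it did with median-ratio scaling and with the limit raised to 5 FPKM. The list median was 0.07 with rFGF1WT and -0.03 with rFGF1ΔHBS. The calls of *Timm10*, *Hspd1*, *Tomm40*, *Bnip3* and *Idh3a* were lost when any 1 of the 6 libraries was left out and with a replicate block, and that of *Bnip3* also with median-ratio scaling (adjusted p = 0.0559).

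Of 18 tested regulators of mitochondrial gene expression, 1 rose and 1 fell with each protein. Of all loci, 3.26% and 3.37% passed higher and 2.94% and 2.89% lower. The list medians were -0.02 and 0.03. *Pprc1*, a growth-responsive coactivator of the PGC-1 family, rose from 10.9 and 12.5 FPKM under HG to 18.7 and 20.3 FPKM with rFGF1WT (0.69, adjusted p = 0.0269) and to 19.3 and 19.2 FPKM with rFGF1ΔHBS (0.68, adjusted p = 0.0285). Both calls were lost when each fit held 4 libraries (0.0761 and 0.0666) and when any 1 library was left out. *Ppargc1a*, which encodes PGC-1alpha, stood at 2.05 and 1.59 FPKM under HG, 0.61 and 0.73 FPKM with rFGF1WT, and 0.80 and 0.54 FPKM with rFGF1ΔHBS. Its log2 fold changes of -0.75 and -0.76 did not pass (adjusted p = 0.0654 and 0.0621), although its libraries did not overlap with HG.

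*Gabpa*, the DNA-binding subunit of the ETS factor GABP, stood apart with rFGF1WT. It was at 22.9 and 23.8 FPKM under HG, 10.9 and 11.1 FPKM with rFGF1WT, and 23.9 and 23.2 FPKM with rFGF1ΔHBS. It fell by 1.02 on the log2 scale with rFGF1WT (standard error 0.05, adjusted p = 0.00576), its value with rFGF1ΔHBS was 0.01 (adjusted p = 0.929), and the difference between the proteins was 1.03 (adjusted p = 0.00936). *Gabpb2*, a partner subunit of GABP, showed the reverse order. It was at 12.8 FPKM in each HG library, 10.6 and 11.2 FPKM with rFGF1WT, and 4.56 and 3.75 FPKM with rFGF1ΔHBS. It fell by 1.42 with rFGF1ΔHBS (standard error 0.10, adjusted p = 0.0118, or 0.0636 and 0.0575 without the first or the second HG library), was -0.21 with rFGF1WT (adjusted p = 0.266), and differed between the proteins by -1.21 (adjusted p = 0.0381, or 0.122 with only those 4 libraries). With the replicate block the difference of *Gabpa* and both calls of *Gabpb2* did not pass (adjusted p = 0.0835, 0.0661 and 0.16). The start sites of *Gabpa* and of the stalk gene *Atp5j* lie 700 bases apart on chromosome 16, on opposite strands in overlapping gene models, and without strand information fragments in the overlap cannot be told apart. *Atp5j* was at 33.8 and 32.9 FPKM under HG, 33.4 and 29.5 FPKM with rFGF1WT, and 31.7 and 31.2 FPKM with rFGF1ΔHBS (adjusted p = 0.53 and 0.544), so the step of *Gabpa* with rFGF1WT was not seen in its neighbour.

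The other regulators tested (*Ppargc1b*, *Gabpb1*, *Esrra*, *Yy1*, *Tfb1m*, *Tfb2m*, *Polrmt*, *Tefm*, *Mterf1a*, *Mterf3*, *Twnk*, *Polg*, *Nrf1* and *Tfam*) did not pass in any comparison. *Nrf1*, which encodes the factor of the motif printed above, was at 3.29 to 3.81 FPKM in all 6 libraries. *Tfam*, which packages and transcribes mitochondrial DNA, was at 15.7 and 14.7 FPKM under HG, 9.32 and 13.6 FPKM with rFGF1WT, and 9.61 and 9.37 FPKM with rFGF1ΔHBS (adjusted p = 0.276 and 0.132). *Esrrg* and *Polg2* were below the FPKM limit.

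**Figure D5:**
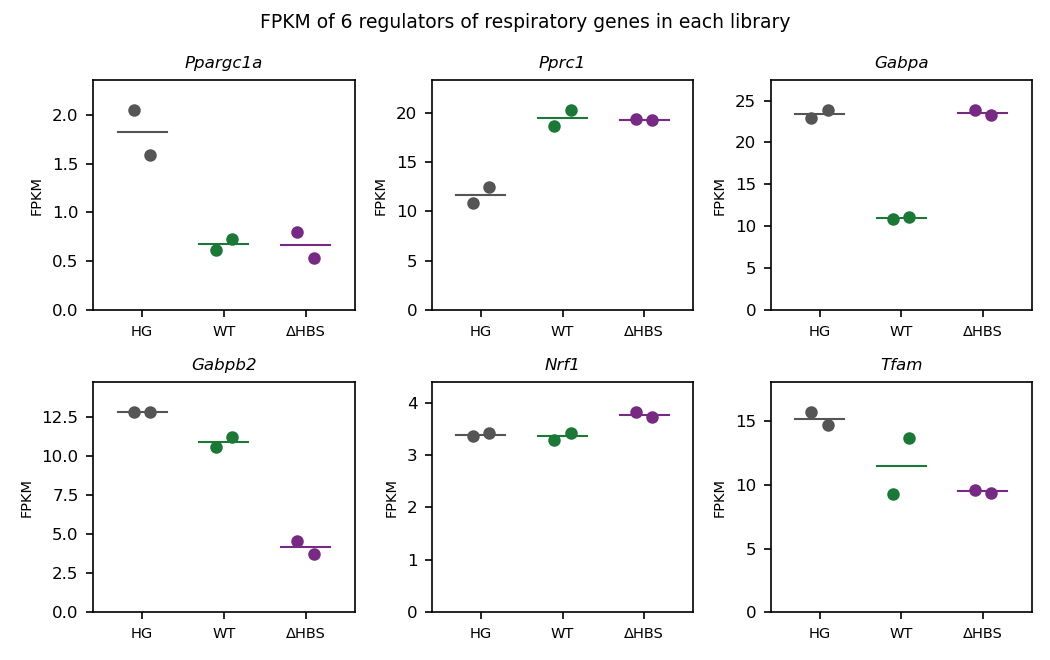
FPKM of 6 regulators of respiratory genes in each library (points), with the group mean as a line and axes from 0. Pprc1 is higher and Ppargc1a lower with both proteins, Gabpa is low only in the rFGF1WT libraries (10.9 and 11.1 FPKM) and Gabpb2 only in the rFGF1ΔHBS libraries (4.56 and 3.75 FPKM).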

How the data were processed

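RNA-Seq of 6 libraries of MPCs was used. The authors selected poly(A) RNA, sequenced paired ends and deposited 1 table of FPKM, for which their methods name edgeR. The submitters' processing notes list Bowtie 0.12.2, HISAT2 2.0, StringTie 1.3.0 and the build mm8, without roles. Positions and lengths were taken from GENCODE M21 (GRCm38), which held 78602 of the 78903 Ensembl transcript IDs. Whether strand was used in counting is not given in the sources used here, and 4 members lie on merged loci.

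Groups came from the labels. The deposited FPKM were transformed to log2(FPKM + 1), and limma 3.58.1 (R 4.3.3, eBayes with a trend, 3 residual degrees of freedom) was run on loci averaging 1 FPKM or more. The threshold was a Benjamini-Hochberg adjusted p of 0.05. A fold change on this scale understates that of low loci. Intervals are 95% limits without adjustment for multiple tests. On simulated data, 200 of 10562 loci were changed by 1.5 on the log2 scale, up or down. The fit called 137 of them for rFGF1WT against HG, with 8 false calls. Smaller changes were not simulated.

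The members and lists were chosen with earlier results of these data known. A few items are not reported here. Genes named were members past the threshold, the highest, lowest and most changed member per complex, paralogs, members on merged loci, list genes past the threshold, regulators and mitochondrial DNA subunits. *Ndufb9*, *Ndufs8*, *Sdhb*, *Sdhc*, *Uqcrfs1*, *Uqcrc1*, *Uqcrc2*, *Atp5a1*, *Atp5f1*, *Atp5h*, *Atp5j*, *Ndufb3* and *Atp5l* were added after their values were seen. So were *Cox14*, *Coa6*, *Slc2a1*, the markers with values and genes given as examples of lists. Median-ratio scaling, quantile normalization, other filters and pseudocounts, robust empirical Bayes, only the 4 libraries compared, a replicate block and leaving out each library were the alternatives.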

Additional observations from a re-analysis of the deposited data

Results flagged for a closer look

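The effects of the proteins differed for *Gabpa* and *Gabpb2* in limma's test of the difference between them. *Gabpa* differed by 1.03 on the log2 scale (rFGF1ΔHBS minus rFGF1WT, adjusted p = 0.00936) and *Gabpb2* by -1.21 (adjusted p = 0.0381). Only 1 of these 2 differences passed without a filter, among loci above 0 in all 6 libraries, and with only the 4 libraries compared. The adjusted p of these differences ranged from 0.00921 to 0.0835 for *Gabpa* and from 0.0364 to 0.16 for *Gabpb2* over the alternatives.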

How the results depend on the processing

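The number of members that passed was 0 or 1 under every alternative. With rFGF1ΔHBS against HG it was 0 with median-ratio scaling, without a filter, with robust empirical Bayes, with only the 4 libraries compared and with the replicate block. With rFGF1WT against HG it was 1 (*Cox7a2l*, also 2-fold) with only the 4 libraries compared. Leaving out a library gave 0 to 1 members in each comparison, also with the 2-fold limit, and member medians of -0.143 (without the first rFGF1WT library) to -0.0431 (without the first HG library) for rFGF1WT, -0.17 to -0.0691 for rFGF1ΔHBS and -0.0727 to 0.0143 between the proteins, the last without the second and the first rFGF1WT library. Median-ratio scaling moved the summed FPKM under HG to 742, 113, 222, 883 and 949 for complexes I to V. Context genes that passed, 6 with rFGF1WT, 5 with rFGF1ΔHBS and 2 between proteins, numbered 3, 2 and 1 without a filter (all among the first calls), 2, 3 and 1 with only the 4 libraries compared (1, 1 and 1 of them among the first calls, the others *Coa6*, *Cox14* and *Cox19*), and 1, 0 and 0 with the replicate block. With rFGF1ΔHBS they were, the first 5 included, 8 with the limit raised to 5 FPKM and 8 among loci above 0 in all libraries (there 1 between proteins), and 1 to 2, 0 to 3 and 1 to 2 without a library, of which 1, 0 to 1 and 1 to 2 were among the first calls. Deviations between replicates were little correlated from group to group (r -0.05 to 0.10 over all loci), which cannot show whether the libraries were paired. Over all loci the block left 41, 39 and 6 calls of 654, 661 and 58.

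Without a library the sign turned for *Ndufb4* with rFGF1ΔHBS (-0.31 to 0.0306), *Sdhd* with rFGF1WT (-0.34 to 1.72) and between proteins (-1.95 to 0.10), *Uqcr10* between proteins (-3.43 to 0.54), *Cox7a2l* with rFGF1ΔHBS (-2.10 to 0.00169), *Atp5d* (-0.75 to 0.0387) and *Atp5sl* (-0.036 to 0.48) between proteins, *Gabpa* with rFGF1ΔHBS (-0.0177 to 0.0388) and *mt-Nd2* with rFGF1WT (-0.12 to 0.016). The fall of *Gabpa* with rFGF1WT passed under every alternative (adjusted p at most 0.0498). The calls of *Pprc1*, *Timm10*, *Hspd1*, *Tomm40*, *Idh3a* and *Bnip3* were lost when any 1 library was left out, where fewer samples enter the fit; other causes were not tested.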
